A study of Mus musculus with 4 samples.

Results

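Genes of the smooth muscle contractile apparatus and close relatives of them were followed in N2a cells depleted of Arglu1. The members are Acta1, Acta2, Actc1, Actg2, Myl9, Cnn1, Tagln, Myh11, Tpm1 and Tpm2, and they were taken by symbol, 10 of the 22667 genes in the deposited expression table. The set was chosen by the knockdown values in these same libraries, in which several of its genes had the highest ratios, so those values are a description of the choice and not evidence for it. N2a (Neuro-2a) is a mouse neuroblastoma cell line. The cells received a non-targeting siRNA (siControl) or siRNA against Arglu1 (siArglu1) for 48 h, followed for 4 h by vehicle (ethanol, Veh) or by the synthetic glucocorticoid dexamethasone at 100 nM (Dex). Each group was made up of mRNA from 3 pooled cultures, with 1 library from each of the 4 groups. They are called siControl Veh and siControl Dex for the control siRNA and siArglu1 Veh and siArglu1 Dex for the knockdown. No group therefore has a replicate, single pairs of libraries were not tested, and the spread between cultures is unknown.

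Smooth muscle cells contract when the regulatory light chain of myosin is phosphorylated and myosin filaments pull on actin filaments. Tropomyosin lies along the actin filament, and calponin and transgelin bind it. Many of these genes are known targets of serum response factor (SRF), which binds a short element called the CArG box and, in smooth muscle, works with its cofactor myocardin. Acta1 and Actc1 are better known as the actins of skeletal and cardiac muscle, so the set reaches beyond smooth muscle.

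A pair of sequence sets is shown because the exons carry the splicing result and the promoters belong to genes that were higher together. The first set holds the mutually exclusive internal exons of the tropomyosin genes, each of 76 nt and within the coding sequence, of which a transcript normally holds 1 of the pair. They are taken from GENCODE M21 transcripts (GRCm38, both genes on the minus strand), 5′ to 3′, and capitals mark the bases that differ between the exons of a pair.
Tpm1 upstream exon, chr9:67032466-67032541: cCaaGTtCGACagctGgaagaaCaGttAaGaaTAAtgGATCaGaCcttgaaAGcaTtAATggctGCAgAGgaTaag
Tpm1 downstream exon, chr9:67031951-67032026: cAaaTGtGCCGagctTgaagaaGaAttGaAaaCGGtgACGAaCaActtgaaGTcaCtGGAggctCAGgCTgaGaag
Tpm2 upstream exon, chr4:43519003-43519078: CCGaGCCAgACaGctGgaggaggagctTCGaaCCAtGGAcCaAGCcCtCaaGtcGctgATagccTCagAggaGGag
Tpm2 downstream exon, chr4:43518644-43518719: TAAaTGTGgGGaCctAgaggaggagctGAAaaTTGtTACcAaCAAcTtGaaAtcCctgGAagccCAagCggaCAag
The Tpm1 exons differ at 33 of 76 bases (56.6% identity) and the Tpm2 exons at 35 (53.9%). Between the genes, the upstream exons are 64.5% and the downstream exons 73.7% identical.

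The second set holds stretches of 60 bases around a CArG box before a member's start in RefSeq. In the RefSeq promoter table of GRCm38.p6, which holds 250 bases before and 50 after each start, 7 of the 10 members were matched, and 3 of them, Actc1, Myl9 and Acta1, had a CArG box on either strand, against 1.63% of all 32851 promoters. The box begins 47 bases before the start of Actc1, 161 before that of Myl9 and 73 before that of Acta1, as RefSeq places these starts. The RefSeq start of Actc1 lies inside the gene as GENCODE M21 draws it, so by that annotation the stretch lies within the gene. Capitals mark the box, and each stretch is written along the strand of its gene.
Actc1, chr2:114052888-114052947, minus strand: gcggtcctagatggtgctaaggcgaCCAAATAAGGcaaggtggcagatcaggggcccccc
Myl9, chr2:156775278-156775337, plus strand: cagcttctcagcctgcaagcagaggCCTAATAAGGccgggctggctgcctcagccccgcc
Acta1, chr8:123894814-123894873, minus strand: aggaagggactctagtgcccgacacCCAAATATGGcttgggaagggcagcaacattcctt
Acta2, Cnn1, Tpm1 and Tpm2 had no such letters in this window, and Actg2, Tagln and Myh11 were not matched. Only the exact form was searched, with A or T at every place between CC and GG. Looser forms of the box were not looked for, so a member without a match may still hold one. The matches are a description of the letters and not of binding.

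Reads on genes came to between 66074574 and 86541444 per library, and Arglu1 in the siArglu1 libraries stood at 26.4% (25.2 to 27.5) of its siControl level in vehicle and at 22.5% (21.7 to 23.4) in Dex. For this knockdown the paper reports a larger loss, of Arglu1 mRNA by quantitative PCR and of the protein by Western blot. A log2 ratio below is that of read counts divided by library sizes that edgeR's TMM factors had scaled, and a prior count of 1. It was taken for 12497 genes, those with 75 reads or more in the 4 libraries together. A ratio of at least 0.81 in either direction was counted as a change for knockdown, and of at least 1 for Dex. This is a rule of size. Ranges in parentheses are exact 95% intervals for the reads of the libraries compared, and cover counting error only. Levels are the authors' cRPKM, an RPKM corrected for mappability, so that genes can be compared per length.

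The libraries held neuroblast transcripts, while smooth muscle markers were uneven, some at or near 0 and others expressed. Myocd, which encodes myocardin, had 0 reads in all 4 libraries, which allows up to 3 reads in each. Kcnmb1, a smooth muscle potassium channel subunit, had 3, 1, 3 and 4 reads, in the order used throughout, siControl before siArglu1 and vehicle before Dex in each. Mylk, the kinase of the smooth muscle light chain, had 3, 4, 2 and 3 reads, and Lmod1, a leiomodin of smooth muscle, had 4, 2, 20 and 28. Of 12 markers of vascular smooth muscle and pericytes, 9 could be compared. By the rule none was higher with knockdown, 2 were lower in vehicle and 1 in Dex, with Npnt lower in both (-1.43 and -1.13). Of all genes compared, 7.00% were higher and 8.77% lower in vehicle, and 6.19% and 5.93% in Dex. Lmod1, below the read minimum, had ratios of 2.11 (0.77 to 4.35) and 3.00 (1.53 to 6.63). Smtn, which encodes smoothelin, was the most abundant at 6.51, 5.92, 7.49 and 7.99 cRPKM, and Des, which encodes desmin, had 1.74, 1.74, 1.5 and 1.47. The summed level of the 12 was 17.4, 17.2, 14.5 and 16.8 cRPKM. The summed level of 20 sympathetic neuroblast markers lay between 2536 and 2859 cRPKM. These markers were uneven too. Prph alone had 670, 649, 413 and 372 cRPKM. Nefl had 2, 0, 3 and 4 reads, and Nefm had 2, 3, 0 and 9. The libraries are of a bulk culture, in which more cells of a type and more RNA per cell cannot be told apart.

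In siControl cells the set was carried by the tropomyosins. Its summed level was 85.3 and 83.5 cRPKM in siControl Veh and siControl Dex, and Tpm1 and Tpm2 made up 88.0% and 87.9% of it. In siArglu1 Veh and siArglu1 Dex it was 388 and 361 cRPKM, of which the tropomyosins made up 47.3% and 47.7% and the 4 muscle actins 27.7% and 27.3%, compared with 6.47% and 5.97% of the lower siControl sums. The order in siControl Veh was Tpm1, Tpm2, Acta2, Myl9, Actg2, Tagln, Acta1, Actc1, Myh11 and Cnn1. Neighbours whose counting intervals overlapped were Acta2 with Myl9, Actg2 with Tagln, Actc1 with Myh11 and Myh11 with Cnn1. In siArglu1 Veh the order was Tpm1, Myl9, Acta2, Tpm2, Actg2, Acta1, Actc1, Tagln, Cnn1 and Myh11, and only Actc1 with Tagln and Tagln with Cnn1 overlapped. Against the 12497 genes compared, Acta2 stood at the 28.0th percentile of level in siControl Veh and at the 90.0th in siArglu1 Veh, and Myl9 at the 27.9th and the 91.9th.

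**Figure D1:**
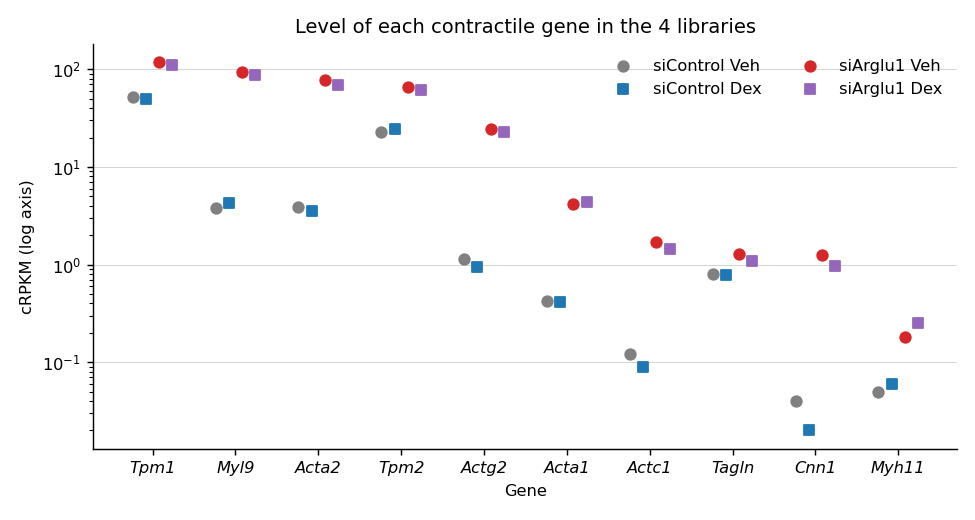
Level of each member in the 4 libraries, in cRPKM on a log axis, with 1 point per pooled library and no error bar. The siArglu1 points lie above both siControl points for every member, by the most for Cnn1, Myl9, Actg2 and Acta2 and by the least for Tagln.

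With knockdown, 9 of the 10 members were higher past 0.81 in vehicle, where 7.00% of all genes compared were higher and 8.77% lower. With Dex, 9 of 10 were higher, where 6.19% of all genes were higher and 5.93% lower. The same 9 were higher in both, as were 603 genes (4.83%) in all. The median log2 ratio of the members was 3.49 in vehicle and 3.59 in Dex, beside 0.0038 and 0.0031 over all genes compared. These figures follow from the choice of the members. The vehicle pair and the Dex pair share no library. Of the members, 4 lay at or above 4 on the log2 scale in each pair. The values nearest to the threshold were those of Tpm1, inside it at 1.21 and 1.17, and of Tagln, outside it at 0.71 and 0.43. Actc1 and Cnn1 had 20 and 9 reads in both siControl libraries together and passed the minimum of 75 only through the siArglu1 libraries. Acta1 and Myh11 had 72 and 48, and would have passed with their siControl level in all 4 libraries.

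**Figure D2:**
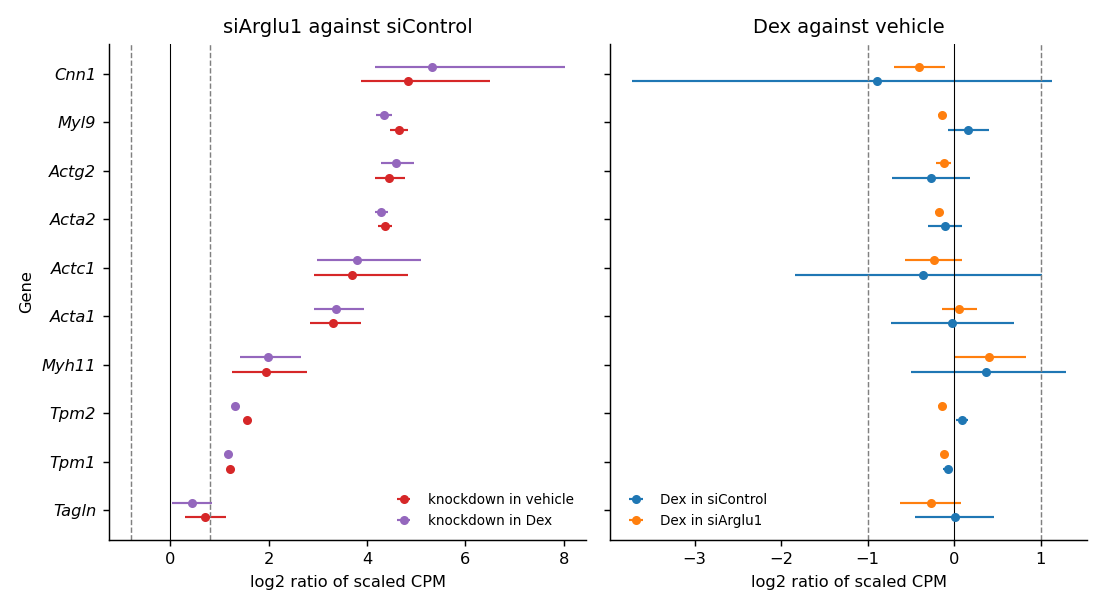
Log2 ratios of the members for knockdown (left) and for Dex (right), with bars for the exact 95% interval from counting error and dashed lines at the thresholds of 0.81 and 1. All knockdown points but those of Tagln lie right of the dashed line, and no Dex point lies past a dashed line.

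The actins are the thin filament itself. Acta2 (ENSMUSG00000035783, chr19:34241090-34255590 of GRCm38, minus strand) encodes the alpha actin of vascular smooth muscle. It had 432, 429, 8739 and 10255 reads, or 3.85, 3.55, 77.4 and 69.9 cRPKM. Both siArglu1 libraries were far above both siControl libraries. The log2 ratio was 4.36 (4.22 to 4.50) in vehicle, or 20.5-fold, and 4.29 (4.15 to 4.43) in Dex. Actg2 (ENSMUSG00000059430, chr6:83512905-83536265, minus strand) encodes the gamma actin of enteric smooth muscle. It had 91, 81, 1974 and 2414 reads, or 1.13, 0.94, 24.4 and 22.9 cRPKM. Its log2 ratio of 4.45 (4.16 to 4.78) in vehicle overlapped that of Acta2, and in Dex it was 4.59 (4.29 to 4.95).

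The striated muscle actins were also higher, from lower levels. Acta1 (ENSMUSG00000031972, chr8:123891769-123894751, minus strand), the alpha actin of skeletal muscle, had 35, 37, 348 and 481 reads, or 0.42, 0.41, 4.14 and 4.40 cRPKM. The log2 ratio was 3.30 (2.83 to 3.88) in vehicle and 3.38 (2.93 to 3.94) in Dex, below the intervals of Acta2 in both pairs. Actc1 (ENSMUSG00000068614, chr2:114047282-114053548, minus strand), the alpha actin of the heart, had 11, 9, 150 and 169 reads, or 0.12, 0.09, 1.69 and 1.46 cRPKM. Its log2 ratio was 3.68 (2.91 to 4.82) in vehicle and 3.80 (2.98 to 5.10) in Dex.

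The 4 muscle actins are near copies in their coding sequence, with 85.4% (Acta1), 82.6% (Actc1) and 84.2% (Actg2) of bases identical to Acta2, so reads might be given to the wrong member. No stretch of 50 bases in the longest coding transcript of one was found unaltered in another muscle actin. Allowing 2 mismatches, 4.87% of such stretches in Acta1, 0.403% in Acta2, 5.76% in Actc1 and 5.30% in Actg2 matched another muscle actin. Per 100 reads of Acta2 there were 8.10, 8.62, 3.98 and 4.69 reads of Acta1, and 2.55, 2.10, 1.72 and 1.65 of Actc1. Both shares were lower in the siArglu1 libraries, whereas Actg2 had 21.1, 18.9, 22.6 and 23.5 reads per 100 of Acta2, slightly more in the siArglu1 libraries. Summed over the 4 actins, which does not depend on how reads are split among them, the libraries had 569, 556, 11211 and 13319 reads. The log2 ratio of this sum was 4.32 (4.20 to 4.45) in vehicle and 4.29 (4.17 to 4.42) in Dex. The cytoplasmic actins were far more abundant, Actb at 1719, 1661, 2770 and 2614 cRPKM and Actg1 at 2165, 2163, 3858 and 3782 cRPKM. Any actin, cytoplasmic ones included, matched 9.66% of the stretches of Acta1 within 2 mismatches and 1.81% of those of Acta2. The mismatch setting behind the counts was not stated, and the part of cross-mapping in these values was not tested.

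Myl9 (ENSMUSG00000067818, chr2:156775420-156781658, plus strand) encodes the regulatory light chain of smooth muscle myosin, whose phosphorylation starts contraction. It had 269, 323, 6654 and 8052 reads, or 3.84, 4.28, 94.3 and 87.8 cRPKM, and became the second most abundant member of the set in siArglu1 cells. The log2 ratio was 4.65 (4.47 to 4.83) in vehicle, or 25-fold, and 4.35 (4.19 to 4.52) in Dex. Myh11 (ENSMUSG00000018830, chr16:14194535-14291372, minus strand) encodes the smooth muscle myosin heavy chain, the most specific marker of the differentiated cell. It had 20, 28, 78 and 138 reads, or 0.05, 0.06, 0.18 and 0.25 cRPKM. The heavy chain was the least abundant member in both siArglu1 libraries, where Cnn1 had been lowest in the siControl ones. Its log2 ratio was 1.94 (1.26 to 2.77) in vehicle and 1.98 (1.42 to 2.65) in Dex. Only 0.41% of its stretches of 50 bases are shared with another gene, the non-muscle heavy chains Myh9 and Myh10.

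Cnn1 (ENSMUSG00000001349, chr9:22099216-22109630, plus strand) encodes calponin, an actin-binding protein that holds back myosin ATPase activity. It had 6, 3, 193 and 194 reads, or 0.04, 0.02, 1.25 and 0.97 cRPKM. With a prior count of 1 its log2 ratio was the highest of all genes compared in both pairs, at 4.83 (3.88 to 6.49) in vehicle and 5.33 (4.16 to 8.02) in Dex. That rank rests on denominators of 6 and 3 reads and was lost under other settings. With a prior count of 5 the ratios were 4.24 and 4.37, below those of Myl9 (4.63) in vehicle and Actg2 (4.53) in Dex. On the cRPKM scale with 0.1 added they were 3.27 and 3.16, below Myl9, Actg2 and Acta2 in both pairs. On that scale Myh11 gave 0.90 and 1.13, also lower than from reads.

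Tagln (ENSMUSG00000032085, chr9:45929619-45936058, minus strand) encodes transgelin (SM22 alpha), among the most used markers of smooth muscle, and was the exception of the set. It had 80, 86, 129 and 142 reads, or 0.80, 0.79, 1.27 and 1.08 cRPKM. The log2 ratio was 0.71 (0.30 to 1.13) in vehicle and 0.43 (0.04 to 0.84) in Dex, with intervals above 0 and values under the threshold. Tagln is also the only member whose exons overlap those of another gene in GENCODE M21. Of its 1595-base transcript, 877 bases (55.0%) lie opposite exons of Gm48529, an antisense RNA gene with no value here, and 108 (6.77%) opposite non-coding exon sequence of Pcsk7, a proprotein convertase gene that had 1321, 1360, 1157 and 1600 reads. Whether counting took strand into account was not stated, so reads of Tagln and of genes opposite it cannot be told apart. Reads across the splice junctions of Tagln, counted in its 2 alternative 5′ splice site events, came to 3, 1, 27 and 12. From these few reads the log2 ratio was 3.19 (1.49 to 5.56) in vehicle, above the interval of all Tagln reads, and 3.30 (0.54 to 8.71) in Dex, where the intervals overlapped. This comparison was made after the values of Tagln were seen, and the part of antisense reads in the level of Tagln was not tested.

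Junction reads of Acta2, Tpm2, Myl9, Actg2 and Cnn1 were also higher in the siArglu1 libraries, with ratios that differed from those of the gene reads to a varying degree. Acta2 had 44, 47, 785 and 927 junction reads in 1 event, with log2 ratios of 4.18 (3.74 to 4.65) in vehicle and 4.01 (3.59 to 4.47) in Dex. Tpm2 had 374, 444, 1187 and 1419 in 2 events, with log2 ratios of 1.69 (1.52 to 1.86) and 1.39 (1.23 to 1.54). Myl9 had 45, 39, 686 and 878 in 1 event, with 3.95 (3.52 to 4.42) and 4.20 (3.74 to 4.71). The vehicle interval of Myl9 lay below that of its gene reads. Actg2 had 14, 2, 183 and 220 in 1 event, with 3.73 (2.95 to 4.63) and 6.49 (4.62 to 9.55), compared with 4.45 and 4.59 from its gene reads. Cnn1 had 1, 1, 23 and 22 in 2 events, and Myh11, with 0, 1, 0 and 2, had too few to compare.

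The tropomyosins were abundant in every library and were higher by smaller ratios. Tpm1 (ENSMUSG00000032366, chr9:67022590-67049406, minus strand) had 6355, 6469, 14499 and 17806 reads, or 52.0, 49.1, 118 and 111 cRPKM. Its log2 ratio was 1.21 (1.17 to 1.26) in vehicle, or 2.32-fold, and 1.17 (1.13 to 1.21) in Dex. Tpm2 (ENSMUSG00000028464, chr4:43514711-43523765, minus strand) had 3112, 3540, 8966 and 10802 reads, or 23.0, 24.3, 65.7 and 60.9 cRPKM. Its log2 ratio was 1.55 (1.49 to 1.61) in vehicle, or 2.93-fold, and 1.32 (1.27 to 1.38) in Dex. Although their ratios were among the lowest of the set, the tropomyosins added more reads per length than the striated actins, Cnn1, Tagln and Myh11 together reached.

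**Figure D3:**
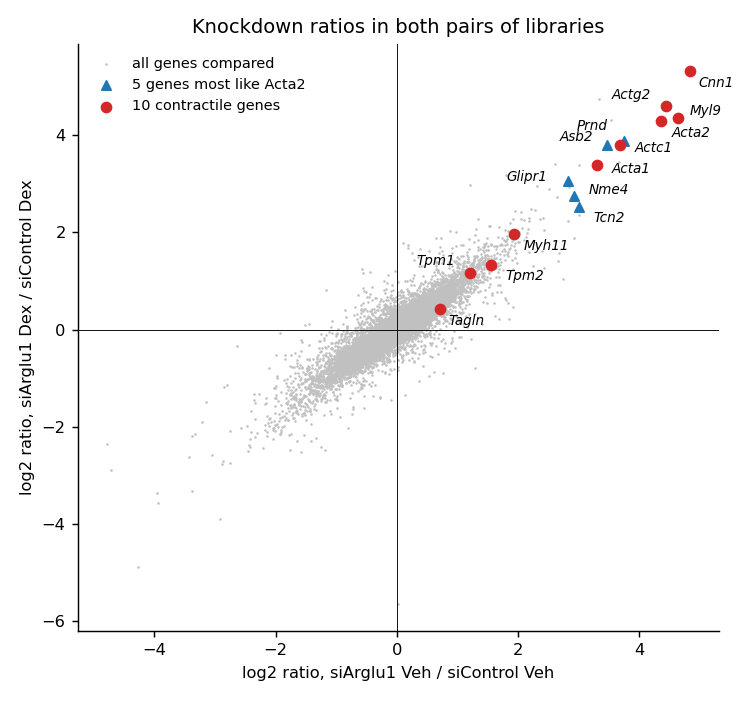
Log2 ratio of siArglu1 over siControl in vehicle (x axis) and in Dex (y axis) for the 12497 genes compared, 1 grey point each, with the 10 members in red and the 5 genes most like Acta2 in blue. Cnn1 lies at the upper end in both pairs, 4 members lie at or above 4, and Tagln lies nearest to the bulk of the genes.

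Dex, which the choice of the members did not use, moved none of them past 1. In siControl cells 0 of 10 members passed the rule, where 0.464% of all genes did (0.320% higher, 0.144% lower). In siArglu1 cells 0 of 10 passed, where 0.392% did (0.328% higher, 0.0640% lower). The median log2 ratio of Dex over vehicle in siControl cells was -0.05, and in siArglu1 cells -0.14. The comparison in siControl cells shares siControl Veh with the vehicle knockdown pair and siControl Dex with the Dex pair, and that in siArglu1 cells shares the siArglu1 libraries in the same way. The counting interval excluded 0 for 2 members in siControl cells and for 7 in siArglu1 cells, where the read counts were higher. For Acta2 the log2 ratio in siControl cells was -0.11 (-0.31 to 0.09), and in siArglu1 cells it was -0.18 (-0.22 to -0.14). For Myl9 it was 0.16 (-0.07 to 0.40) and -0.14 (-0.18 to -0.09). For Tpm1 it was -0.07 (-0.12 to -0.02) and -0.11 (-0.15 to -0.08). These Dex differences were small against the knockdown ratios of the same genes, but those ratios were the ground for choosing the members. With the trend of ratios on transcript length removed, the Dex ratios in siArglu1 cells were 0.0095 for Actg2 and 0.010 for Myl9, compared with -0.12 and -0.14 as measured.

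Cnn1 had the largest Dex ratio of the set in siControl cells, at -0.90 (-3.73 to 1.13), from 6 and 3 reads, and -0.40 (-0.70 to -0.11) in siArglu1 cells. Myh11 was the only member with Dex ratios above 0.3, in siControl cells 0.37 (-0.49 to 1.29) and in siArglu1 cells 0.41 (0.0015 to 0.83). Actc1, at -0.36 (-1.84 to 1.02) and -0.24 (-0.56 to 0.09), and Tagln, at 0.0047 (-0.45 to 0.46) and -0.27 (-0.63 to 0.08), had intervals that include 0. At the depth of these genes in siControl cells, a doubling of Cnn1, Actc1 or Myh11 by Dex lies within the interval.

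Splicing of the members was measured as the percent spliced in (PSI), the percentage of a gene's transcripts in which an exon is included or a splice site is used. The deposited tables held 24 events in 9 of the 10 members, with none for Actc1. Of these, 10 events in 4 members had a PSI in all 4 libraries and a coverage score of at least LOW in 3 or more, which in the tables that give reads means 20 or more. They were 5 in Tpm1, 3 in Tpm2 and 1 each in Acta2 and Myl9. With a difference of 15 PSI as the threshold, 2 events changed in the vehicle pair, where 1.96% of all events did, and 2 in the Dex pair, where 1.52% did. Dex changed 0 events in siControl cells, where 0.719% of all events changed, and 0 in siArglu1 cells, where 0.948% did. Among cassette exons alone the shares were 2.31% and 1.79% for knockdown in vehicle and Dex, and 0.646% and 0.836% for Dex in siControl and siArglu1 cells. Both changed events are the 76-nt exons of Tpm1 whose sequences are given above, and they are not independent, since 1 replaces the other.

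The upstream exon of Tpm1 (chr9:66880273-66880348 of mm9, the build of the deposited coordinates) had a PSI of 34.4, 33.3, 59.4 and 57.8. The downstream exon (chr9:66879758-66879833) had 66.6, 63.8, 40.9 and 40.2. All 4 libraries had the highest coverage score. In siControl cells the downstream exon was the major form and in siArglu1 cells the upstream exon was, and Dex made no difference over 2.77 PSI. The difference with knockdown was 25 PSI for the upstream exon in vehicle and 24.5 in Dex, and -25.7 and -23.6 for the downstream exon. The PSI of both exons summed to 101, 97.1, 100 and 98.0. Of the 32675 cassette exons compared, 146 differed by at least as much as the upstream exon with knockdown in vehicle, and 133 with knockdown in Dex. For the downstream exon these numbers were 125 and 158. Muscle isoforms of Tpm1 are known to carry the downstream exon, and the upstream exon is known from non-muscle isoforms.

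The exons of the other tropomyosin gene differed in the same direction by less. The upstream exon of Tpm2 (chr4:43531875-43531950 of mm9), known from smooth muscle and non-muscle cells, had a PSI of 2.78, 2.88, 9.39 and 8.09. The downstream exon (chr4:43531516-43531591), known from skeletal muscle, had 96.0, 96.0, 91.8 and 91.2 and stayed the major form. The differences with knockdown, 6.61 and 5.21 PSI for the upstream exon, were under the threshold. Reads joining the upstream exon to the next one, counted in its alternative 5′ splice site event, came to 7, 7, 68 and 87, against 367, 437, 1119 and 1332 in the alternative 3′ splice site event of the same gene.

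The other tropomyosin events were below the threshold. The Tpm1 exon of 126 nt that is known from smooth muscle (chr9:66895931-66896056 of mm9) had a PSI of 0, 0, 0.07 and 0, and its partner (chr9:66895593-66895718) had 100 in all 4 libraries, each with the highest score. Thus the smooth muscle exon of Tpm1 was all but absent at every level of the gene. A Tpm1 exon of 79 nt nearer to the 3′ end (chr9:66877471-66877549) had 14.4, 12.9, 8.43 and 7.37, lower in both siArglu1 libraries. A splice site of Tpm2 that adds 2 nt had 92.4, 91.3, 90.0 and 92.4. In Myl9 a 5′ splice site that adds 32 nt had a PSI of 2.22, 10.3, 3.64 and 3.76, from 45, 39, 686 and 878 junction reads, and in Acta2 a 3′ splice site that adds 57 nt had 0, 0, 0.12 and 0.10. The major splice sites of both genes were the same in all 4 libraries.

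**Figure D4:**
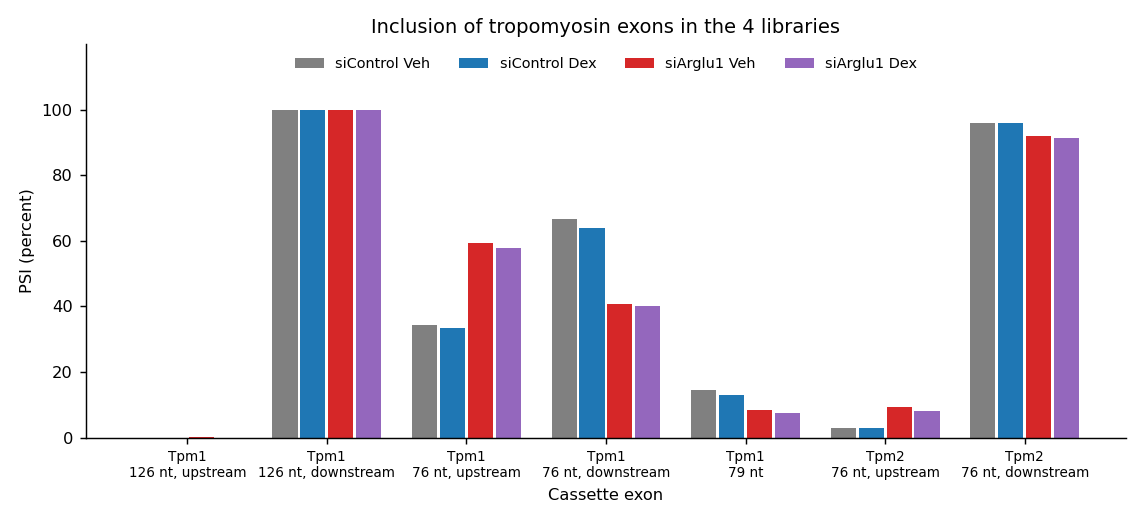
PSI of the 7 tropomyosin cassette exons that could be compared, in percent, with 1 bar per pooled library and no error bar. The 76-nt exons of Tpm1 change places between siControl and siArglu1 cells, those of Tpm2 do not, and the upstream 126-nt exon of Tpm1 is at or near 0 in all 4 libraries.

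Other genes of the contractile apparatus were mixed in direction. Of 32 further smooth muscle genes, 21 could be compared, 9 were higher by the rule in vehicle and 8 in Dex, and 2 were lower in each. Over all genes compared, 7.00% were higher and 8.77% lower in vehicle, and 6.19% and 5.93% in Dex. The median log2 ratio of the 21 was 0.50 in vehicle and 0.61 in Dex. Cnn2, the widely expressed calponin, had 2.42 and 2.29 in vehicle and Dex, and Csrp1, a LIM protein of smooth muscle, had 1.94 and 1.86. Pdlim3, a LIM protein of the actin filament, had 1.73 and 1.75, and Ppp1r14a, the inhibitor of myosin phosphatase, had 1.23 and 1.33. Csrp2 had 1.26 and 1.10, and Pdlim7 had 1.10 and 1.12. Hspb6 and Jph2 were also higher in both. Ppp1r12b, a subunit of myosin phosphatase, was among the lower genes, at -1.5 and -1.04. Of the rest, 3 had 0 reads in every library.

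Of 21 cytoplasmic actin, tropomyosin and non-muscle myosin genes, all 21 were compared, 4 were higher in both pairs and 1 was lower. Over all genes compared, 4.83% were higher in both pairs, and the share lower in both was not counted. In single pairs the list had 1 lower gene in vehicle and 1 in Dex, where 8.77% and 5.93% of all genes were lower. Myl6, the essential light chain that smooth and non-muscle myosin share, had log2 ratios of 1.72 in vehicle and 1.40 in Dex. Flna, an actin cross-linker, had 1.30 and 1.52, Tmsb4x, which binds free actin, had 1.41 and 1.10, and Tpm4 had 0.94 and 0.88. Cfl1, which severs actin filaments, was lower at -1.03 and -1.33. The median was 0.39 and 0.28.

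Of 17 genes for SRF, its cofactors and linked regulators, 14 were compared. In vehicle 1 was higher by the rule and 2 were lower, and in Dex 1 was higher and 0 lower. Over all genes compared, 7.00% were higher and 8.77% lower in vehicle, and 6.19% and 5.93% in Dex. Klf4, a repressor of smooth muscle genes, was the one gene of this list higher in both pairs, at 1.0 and 1.14. Srf itself had 18.5, 18.2, 30.1 and 32.0 cRPKM, and its log2 ratios of 0.73 and 0.81 were under the threshold, the second one before rounding. The list's median was -0.36 and -0.03, beside 0.0038 and 0.0031 over all genes compared. Mkl2, which encodes the cofactor MRTF-B, had -1.39 in vehicle and -0.74 in Dex, and Mkl1, which encodes MRTF-A, had -0.22 and 0.06. Of 18 genes of TGF-beta signalling, a pathway known to raise smooth muscle genes, 16 were compared. Cyr61 (1.64 and 1.47) and Tgfbr3 (1.27 and 1.46) were higher in both pairs, and the receptor Tgfbr1 (-1.09 and -0.93) and the ligand Tgfb1 (-1.04 and -0.81) were lower. Beside these, 4.83% of all genes compared were higher in both pairs, and the share lower in both was not counted. In single pairs the TGF-beta list had 3 lower genes in vehicle and 2 in Dex, where 8.77% and 5.93% of all genes were lower. The median of the TGF-beta list was -0.24 and -0.17.

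**Figure D5:**
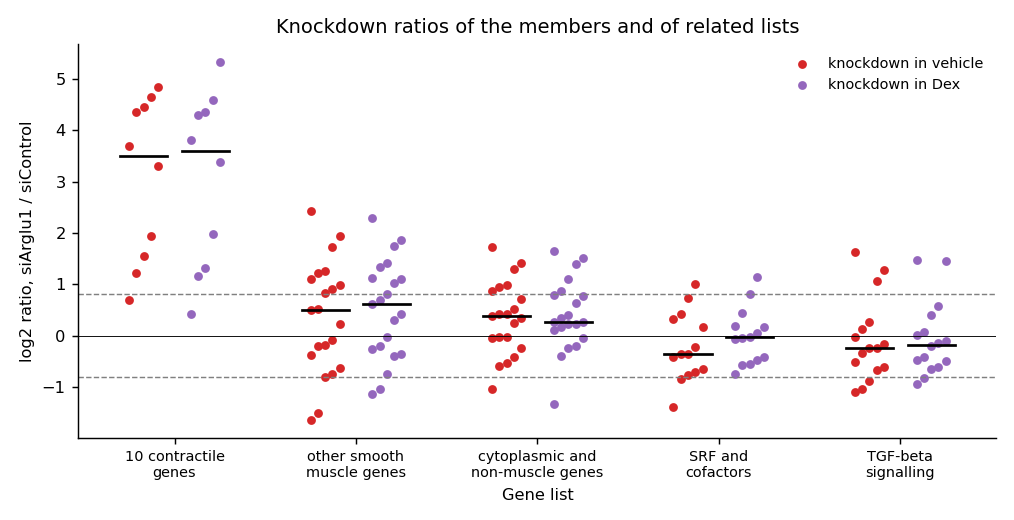
Log2 ratio of siArglu1 over siControl for the 10 members and for the compared genes of 4 related lists, 1 point per gene and pair, with the median as a black line and dashed lines at 0.81 and -0.81. The members reach above 4, and no compared gene of the related lists exceeds 2.42, the vehicle value of Cnn2. The members were chosen by these ratios, so their height follows from the choice. Lmod1, of the other smooth muscle genes, had 2.11 in vehicle and 3.00 in Dex, but is below the read minimum and not shown.

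The genes whose pattern was most like that of Acta2 were Prnd, Asb2, Glipr1, Nme4 and Tcn2, at distances of 0.74, 1.06, 1.97, 2.10 and 2.24. The Euclidean distance was over 3 log2 ratios, knockdown in vehicle and in Dex and Dex in siControl cells. It was taken among 10701 genes with a mean level of at least 1 cRPKM over the 4 libraries. Prnd (0.44 and 0.38 cRPKM in siControl Veh and siControl Dex), Asb2 (0.18 and 0.13) and Acta1 (0.42 and 0.41) passed this level only through the siArglu1 libraries. The members Cnn1, Actc1, Tagln and Myh11 were below it and were not ranked. Of the members ranked, Actg2 (0.35) and Myl9 (0.40) were closer than Prnd, Acta1 lay at 1.40, and Tpm2 and Tpm1 lay at 4.09 and 4.43. Prnd, which encodes the prion-like protein doppel, had 57, 53, 766 and 971 reads. Asb2, a subunit of a muscle ubiquitin ligase, had 31, 25, 345 and 440 reads. The likeness rests on 4 libraries in all.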

How the data were processed

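N2a cells were analysed in 4 pooled libraries, 1 per group, with groups taken from the labels. The authors deposited a count of reads per gene, not normalized, in which a blank was taken as 0 reads, and beside it their cRPKM, an RPKM corrected for mappability. The deposited splicing tables give PSI as a percent and coverage scores in words. The submitters' processing notes name Bowtie and mm9, without a version. The paper names vast-tools for splicing. Further settings were not stated. The expression table also holds 2 columns with the authors' cRPKM ratio, which were not used.

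Counts were scaled with edgeR 4.0.16 (TMM, R 4.3.3, limma 3.58.1), with a prior count of 1 and a minimum of 75 reads. Thresholds were 0.81, the size a figure legend of the study gives for knockdown, 1 for Dex and 15 PSI. The study called its knockdown genes by a p-value from edgeR, so the counts here are not its counts. Depth was 66074574 to 86541444 reads on genes. Single pairs of libraries allow no test, and intervals cover counting error only. Alternatives were DESeq2 1.42.0 size factors, total reads, cRPKM, a prior count of 5, no minimum, removal of a length trend, other thresholds, additive edgeR and DESeq2 models with 1 residual degree of freedom, summed actins and junction reads. The scripts were tested on simulated data.

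The members and the related lists were chosen with earlier results of these data known. Named were all members, genes of a related list past 0.81 in the same direction in both pairs (values for at most 6), defining markers near 0, the 5 genes nearest to Acta2, and covered splicing events. Smtn, Des, Pcsk7, Gm48529, Actb, Actg1, Srf, Mkl1 and Mkl2 were named after their values were seen. A gene of a related list that the rule names is not reported here. Exons were placed in GRCm38 by their length and spacing. Longest coding transcripts of GENCODE M21 were cut into stretches of 50 bases. The CArG box was searched on both strands in its exact form only.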

Additional observations from a re-analysis of the deposited data

Results flagged for a closer look

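Tpm2 had Dex ratios of opposite sign in siControl and siArglu1 cells, both far under the threshold of 1. In siControl cells its log2 ratio of Dex over vehicle was 0.0863, with an interval of 0.02 to 0.16. In siArglu1 cells the ratio was -0.142, with an interval of -0.18 to -0.10. The difference was not tested, since each value rests on 1 library per group. Under other scalings the values stayed between 0.08 and 0.09 in siControl and between -0.14 and -0.09 in siArglu1 cells.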

How the results depend on the processing

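The 9 members past 0.81 in each knockdown pair stayed 9 under both other scalings, cRPKM, a prior count of 5, no minimum and removal of the length trend. They were 8 in vehicle and 7 in Dex at a threshold of 1.5. All these counts follow from the choice of the members. The vehicle ratio of Tagln ranged from 0.50 to 0.71 and that of Cnn1 from 3.27 to 4.83, and their Dex ratios from 0.32 to 0.44 and from 3.16 to 5.33, junction reads aside. At a Dex threshold of 0.58, 1 member passed in siControl cells, Cnn1. At 25 PSI, 0 member events passed in the Dex pair. The genes past the threshold numbered 1971 and 1514 for knockdown in vehicle and Dex, and 58 and 49 for Dex in siControl and siArglu1 cells. They were 21 and 17 for Dex with cRPKM, 35 and 27 with a prior count of 5, and 4318, 3728, 1847 and 1351 without the minimum. They were 387, 300, 275 and 307 at the other thresholds. At an adjusted p under 0.05, the additive models called 7704 (edgeR) and 6003 (DESeq2) of the 12497 genes for knockdown, and edgeR 130 for Dex. These models rest on 1 residual degree of freedom. Their calls of members are left out, since the members were chosen by the knockdown values. Of the other smooth muscle, cytoplasmic, SRF and TGF-beta lists, 10, 5, 1 and 4 genes passed in both pairs. They were 3, 0, 0 and 0 at 1.5, 17, 17, 9 and 12 in the edgeR model, 16, 15, 9 and 11 in the DESeq2 model, and 2 for the SRF list without the length trend. These are the 33 summary values that moved, 115 others did not, and of the values of single genes and events 36 moved and 248 did not. No value past a threshold changed sign. No paired analysis was possible because the groups share only 1 replicate number, and the additive models set the libraries against each other within vehicle and within Dex instead. With 1 library per group no replicate could be left out. Few siControl reads limit Actc1, Cnn1 and Myh11, and the spread between cultures is unknown for every value.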

Other observations

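Some genes of heart muscle were expressed in these neuroblastoma cells beside the contractile genes. Gata4 had 30.3, 30.6, 34.5 and 37.5 cRPKM in the 4 libraries, siControl before siArglu1 and vehicle before Dex, and Nkx2-5 had 14.6, 14.0, 25.3 and 23.6. Both encode transcription factors of the early heart. Of 15 cardiac markers 9 could be compared, and 3 were higher with knockdown in both pairs, Tnnt2 (log2 ratios of 1.46 in vehicle and 1.05 in Dex), Actn2 (1.12 and 1.19) and Myl2 (1.19 and 0.98). Over all genes compared, 4.83% were higher in both pairs. The summed level of the cardiac list was 52.9, 53.9, 77.3 and 79.6 cRPKM. Myl3 and Tnnc1 had 0 reads, and Myh6 had 1 read in all.

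Of 17 skeletal muscle markers 4 could be compared and none passed 0.81, and 7 had 0 reads in every library, Myod1 among them. Myh3, the embryonic myosin heavy chain, had 52.7, 51.5, 48.9 and 56.1 cRPKM. Of 11 fibroblast markers 4 could be compared and none passed in both pairs, and of 7 endothelial markers 3 could be, of which Vwf and Pecam1 were lower in both. Of 20 neuroblast markers 18 were compared. Dbh (2.0 and 2.01), Mycn (1.24 and 1.29), Gata3 (1.16 and 1.54), Phox2a (1.17 and 1.02) and Elavl4 (0.83 and 0.91) were higher in both pairs, and Gata2 (-1.34 and -1.28) and Th (-1.26 and -0.90) were lower. Beside all these lists, 4.83% of all genes compared were higher in both pairs, and the share lower in both was not counted. In single pairs, 8.77% of all genes were lower in vehicle and 5.93% in Dex. Of the endothelial markers 2 were lower in each pair. Of the neuroblast markers 2 were lower in vehicle and 3 in Dex, where Prph passed too (-0.66 in vehicle and -0.81 in Dex).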
